A study of Mus musculus with 5 samples.

Results

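Gene-desert H3K27ac peaks were the peaks of the deposited list on chromosomes 1 to 19 that were narrower than 4000 bp and whose summit, the base of highest signal, lay outside every protein-coding gene and more than 100 kb from the nearest protein-coding gene end. Of the 22948 peaks in the list, 22618 were autosomal, 22054 of these were narrower than 4000 bp, 6320 of these had a summit outside protein-coding genes, and 1160 met the distance rule, 5.26% of the autosomal narrow peaks (95% Wilson interval 4.97% to 5.56%). A desert is a gap of more than 200 kb between neighbouring protein-coding genes, so that some of its sequence lies beyond 100 kb from both. The study measured H3K27ac by ChIPmentation, in which the transposase Tn5 adds sequencing adapters to immunoprecipitated chromatin. Per the labels, all 5 libraries, 4 of H3K27ac (dko_H3K27ac) and 1 Input library, came from mouse bone marrow cells sorted as CD45.2+, Lineage-, Sca1+ and Kit+, called HSC/MPP (haematopoietic stem cells and multipotent progenitors), with Mll3 and Mll4 deleted. No library of another genotype was analysed here, so no value below measures an effect of the deletion. The list pools the H3K27ac libraries, and the spread between libraries cannot be given for any value. Intervals below are 95% intervals, except those of differences of medians, which are wider. They cover counting error over peaks, genes or deserts only.

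H3K27ac, acetylation of lysine 27 on histone H3, is deposited by the acetyltransferases p300 and CBP and marks active promoters and enhancers. Mll3 and Mll4 are histone H3 lysine 4 methyltransferases that act at enhancers. Enhancers can act on a promoter across long stretches of sequence without protein-coding genes, and developmental transcription factor genes often border such stretches.

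A desert peak overlapped the start window of 25 long non-coding RNA (lncRNA) genes, out of 1703 with such a window in a desert (1.47%, 0.996% to 2.16%). The peak covered the start base itself in 18 of the 25 and other bases of the window in 7. The share for lncRNA starts outside deserts is not given here. The start windows are 300 bases long, from 250 bases before to 50 after a start, and come from RefSeq on GRCm38.p6, the build called mm10 in the submitters' processing notes. The 5 shown were chosen after the values were seen: the start with the highest signal value (Gm35419), a host gene of a microRNA cluster (Mir99ahg), the start beside the strongest desert peak's gene (Lncpint), the start richest in CpG (5730522E02Rik) and a gene known to act on its flanking gene (Morrbid). The sequences run 5′ to 3′ on the gene's strand, and capitals mark matches, on either strand, to 1 of 3 motifs. GAGGAAGT is a motif of PU.1, a factor of myeloid and B cells. The letters TGTGGT form the core of the motif of RUNX factors, which act in blood stem cells. For GATA factors, which act in stem, erythroid and megakaryocyte cells, AGATAA was searched.
Gm35419, chr14:62170964-62171263, minus strand: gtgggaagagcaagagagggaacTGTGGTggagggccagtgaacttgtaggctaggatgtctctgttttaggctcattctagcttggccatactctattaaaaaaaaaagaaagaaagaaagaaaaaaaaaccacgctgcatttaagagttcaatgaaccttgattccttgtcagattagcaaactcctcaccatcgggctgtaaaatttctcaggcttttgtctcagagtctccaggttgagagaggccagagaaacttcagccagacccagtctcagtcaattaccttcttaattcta
Mir99ahg, chr16:77329078-77329377, plus strand: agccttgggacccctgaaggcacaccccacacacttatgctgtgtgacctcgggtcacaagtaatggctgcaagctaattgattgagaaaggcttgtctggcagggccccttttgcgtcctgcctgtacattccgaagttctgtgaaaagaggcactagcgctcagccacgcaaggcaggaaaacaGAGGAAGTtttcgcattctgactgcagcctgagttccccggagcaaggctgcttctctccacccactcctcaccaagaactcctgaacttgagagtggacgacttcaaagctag
Lncpint, chr6:31218425-31218724, minus strand: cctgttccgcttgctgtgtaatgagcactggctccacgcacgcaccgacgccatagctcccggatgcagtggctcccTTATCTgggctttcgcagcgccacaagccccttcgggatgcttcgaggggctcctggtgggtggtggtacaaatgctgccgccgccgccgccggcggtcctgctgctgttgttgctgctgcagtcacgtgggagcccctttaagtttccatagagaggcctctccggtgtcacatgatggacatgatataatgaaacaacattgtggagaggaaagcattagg
5730522E02Rik, chr11:26210527-26210826, minus strand: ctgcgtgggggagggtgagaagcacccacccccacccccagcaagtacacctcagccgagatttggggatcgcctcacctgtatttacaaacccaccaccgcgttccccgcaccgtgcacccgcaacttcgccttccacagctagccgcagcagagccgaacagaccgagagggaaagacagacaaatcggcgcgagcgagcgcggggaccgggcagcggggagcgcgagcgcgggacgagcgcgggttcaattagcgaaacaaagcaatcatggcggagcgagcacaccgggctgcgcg
Morrbid, chr2:128429302-128429601, minus strand: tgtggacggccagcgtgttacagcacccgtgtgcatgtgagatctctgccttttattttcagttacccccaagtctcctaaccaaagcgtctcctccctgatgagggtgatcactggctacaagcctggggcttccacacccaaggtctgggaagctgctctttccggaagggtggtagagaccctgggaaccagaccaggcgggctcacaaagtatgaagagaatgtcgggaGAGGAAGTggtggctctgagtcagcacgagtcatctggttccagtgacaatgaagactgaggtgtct

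Signal values are read here as enrichment of the H3K27ac pileup over background. The exact meaning of the column is not stated in the sources used here. The peak over the Gm35419 start had a signal value of 7.08. The peak over the Mir99ahg start had 6.73, that over the Lncpint start 6.43, that over the 5730522E02Rik start 5.42 and that over the Morrbid start 3.03. The 5730522E02Rik window held 33 CpG dinucleotides, Lncpint 18, Mir99ahg and Morrbid 8 each, and Gm35419 2. GAGGAAGT was present in 3 of the 25 start windows with a desert peak (12%), in 69 of the 1991 desert lncRNA windows without one (3.47%), and in 1052 of all 32851 RefSeq start windows (3.20%). TGTGGT was present in 5 of the 25 (20%), against 20.1% of the desert windows without a peak and 16.8% of all windows. AGATAA was present in 3 of the 25 (12%), against 18.03% of the desert windows without a peak and 11.2% of all windows. The E-box CAGCTG was in 4 of the 25 (16%), against 15.5% and 16.3%, and the EBF motif CCCNNGGG in 1 of the 25 (4%), against 6.58% and 13.7%. With 25 windows these shares rest on few sequences, and a match describes the letters only. The median CpG count was 5 in the windows with a desert peak, 3 in desert lncRNA windows without one, and 13 at protein-coding starts.

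MicroRNA genes were the other transcripts with a printable product. Of 101 microRNA hairpins in deserts, 8 had a desert peak within 10 kb and 15 within 50 kb. The share of desert sequence within these distances of a desert peak is not given here, so the counts cannot be called high or low. The following mature microRNAs, chosen after the values were seen, come from 3 desert loci. The first 4 form a pair for each of 2 seeds, the bases 2 to 8 that pair with targets, given in capitals, and miR-125b-5p, with a seed of its own, is shown because it shares a host gene with miR-100-5p.
miR-100-5p, chr9:41531437-41531458: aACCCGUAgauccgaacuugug
miR-99a-5p, chr16:77598940-77598961: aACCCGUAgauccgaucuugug
miR-29a-3p, chr6:31062673-31062694: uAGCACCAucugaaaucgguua
miR-29b-3p, chr6:31063025-31063047: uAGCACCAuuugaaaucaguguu
miR-125b-5p, chr9:41581940-41581961: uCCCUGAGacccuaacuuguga

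The Mir100 hairpin lay 4.56 kb from a desert peak of signal value 4.19 in the gap between Ubash3b and Gm40514, and Mir125b-1, within the same host gene Mir100hg, lay 55.1 kb from it. Mir99a shares the ACCCGUA seed with Mir100 and lay 93.9 kb from its nearest desert peak, which had a signal value of 2.66. Mir29b-1 and Mir29a, which share the AGCACCA seed, lay 15.3 and 15.6 kb from a desert peak of signal value 2.29 in the gap between Klf14 and Mkln1. That peak had a −log10 q of 0.403, short of a q-value of 0.05, the chance of a false call among peaks at least as strong as estimated by the peak caller. The stronger peaks of the same gap lay on the other side of it, farther from the hairpins.

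Peaks were unevenly spread over deserts. Of the 1393 autosomal deserts, 337 held at least 1 desert peak (24.2%, 22.0% to 26.5%). Among those 337, 140 held a single peak, 138 held 2 to 4, 59 held 5 or more and 17 held 10 or more. The first 10 deserts by count held 300 peaks, 25.9% of all desert peaks, and the first alone held 107 (9.22%). These counts include peaks that lie close together: with peaks within 1 kb merged, desert peaks numbered 938 and the fullest desert held 75. Longer deserts ranked only slightly higher by count: Spearman's rho between length and peak count was 0.230 over the 1393 deserts, given as a description. The median desert with a peak was 584 kb long and the median desert without one 386 kb. Of the 20 longest deserts, 13 held no desert peak, including the longest, 4542 kb between the protocadherin genes Pcdh20 and Pcdh9. Among the other 7, the 3697 kb gap between Zeb2 and Acvr2a held 18, that between Slitrk5 and Gpc5 held 4, and the remaining 5 held 1 or 2 each.

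**Figure D1:**
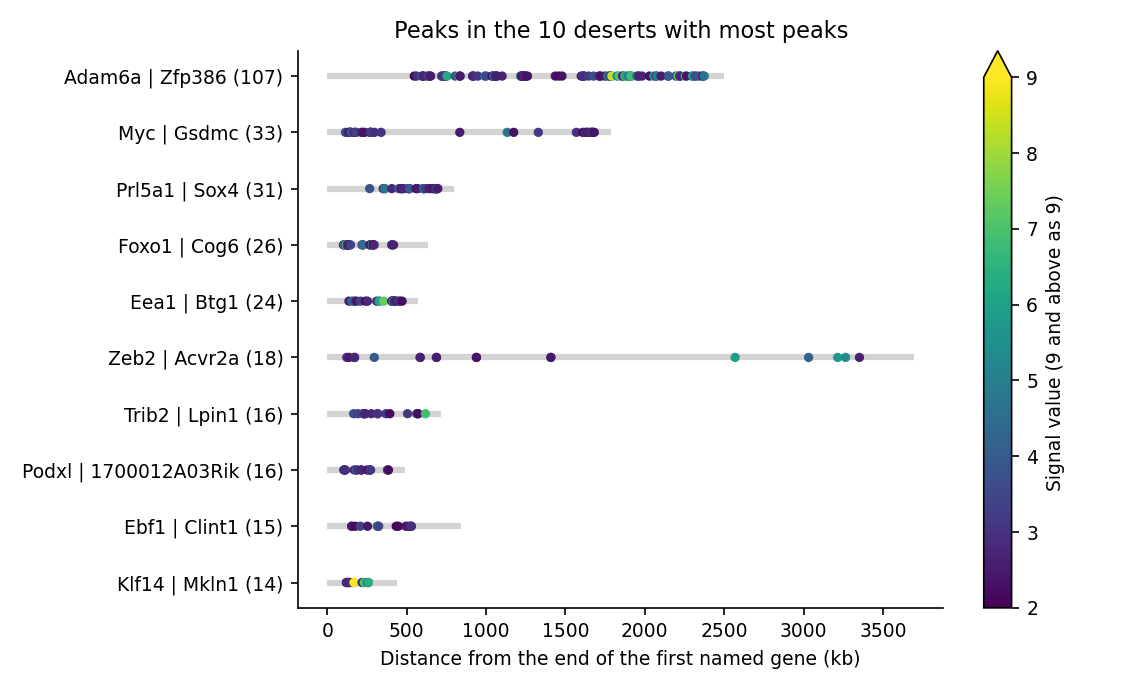
Positions of the desert peaks (points) in the 10 deserts with most peaks, as distance in kb from the end of the flanking gene named first; grey bars span each desert and colour gives the signal value. Peaks crowd near Sox4, Foxo1 and Btg1, split into near and far groups beyond Myc, and spread over the gap between Adam6a and Zfp386, which holds 107.

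The desert with most peaks was the immunoglobulin heavy chain locus, for which the word desert does not hold. The gap between Adam6a and Zfp386, chr12:113546415-116047713, held 107 desert peaks (counting interval 87.7 to 129), 46.5 per Mb of the sequence searched, and lies where the annotation places the heavy chain variable segments, which are gene segments and not protein-coding genes. The part searched contained 168 such segments, 57 of them pseudogenes. Of the 107 peaks, 53 (49.5%, 40.2% to 58.9%) had a summit within 1 kb of a segment end, a zone that took up 16.8% of the sequence searched. Their signal values ran from 2.00 to 8.39 with a median of 3.11, and the median was 3.30 near a segment end and 3.00 elsewhere. The peaks with the highest values, 8.39 and 8.26, were at chr12:115337605-115340883 and chr12:114376756-114380563. By position, 49 of the 107 lay in the third of the gap nearest Zfp386, 38 in its middle and 20 in the part of the same length nearest Adam6a.

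Gaps with other antigen receptor segments held few or no desert peaks. The gap between Tmem121 and Adam6b, at the other side of the heavy chain locus, held 3, with a highest of 3.01. A further 6 gaps with receptor segments held 0, among them the gap between Gm36448 and Dad1 with 201 segments of the T cell receptor alpha and delta locus. The gaps LOC115489384 to Rab10, from chr12:62817, and LOC115489330 to Gm2888, from chr14:178961, are also among them and lie at chromosome starts. Assembly gaps were not removed and whether reads could map there was not checked, so those counts of 0 may not be measured absences.

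Markers of several blood lineages were checked at gene ends, since a sorted population can hold more than 1 cell type. Of the 8 markers of the labelled cells, 4 had a peak overlapping the 1 kb on either side of a gene end: Kit, Ptprc, Flt3 and Slamf1. Ly6a, which encodes Sca1, and Cd34, Procr and Mecom had none. Of 8 B lineage markers, 7 had one, among them Cd79a, Vpreb1, Ebf1 and Pax5. T lineage markers had 1 of 8 (Cd3d), erythroid and megakaryocyte markers 1 of 8 (Hbb-bt), and granulocyte and macrophage markers 0 of 8. The same held for 37.4% of autosomal protein-coding genes. In bulk chromatin, the share of cells that carry a mark and the amount of mark per cell cannot be told apart, and the part of the B lineage signal in the heavy chain counts was not tested.

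Beyond Myc, a transcription factor that drives growth and proliferation, the gap to Gsdmc, chr15:61990362-63775970, held 33 desert peaks (22.7 to 46.3). Of these, 19 lay between 114 and 338 kb from Myc, and 14 of the 33 were inside Pvt1, an lncRNA gene beside Myc. Another 4 lay between 834 and 1329 kb, and 10 lay between 1569 and 1682 kb from Myc, closer to Gsdmc, a gasdermin gene. A group of blood enhancers far downstream of Myc is known in mouse, and the overlap of these 10 with it was not tested. Signal values were low, from 2.15 to 4.79 with a median of 2.78. The highest, 4.79, was at chr15:63122612-63123899, 1133 kb from Myc, and 4.25 was the highest of the far group, at chr15:63656458-63657905. Myc had a peak at an end and Gsdmc had none. On the other side of Myc, the gap to A1bg held 4 desert peaks, of signal value up to 3.03.

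Sox4, a transcription factor of progenitor cells and early lymphocytes, flanked the desert with 31 peaks (21.1 to 44.0), chr13:28151596-28948918, whose other flank is the prolactin family gene Prl5a1. Of the 31, 27 were nearer Sox4, beyond the 3′ end of that gene, and 30 were inside the lncRNA gene 2610307P16Rik. Signal values ran from 2.05 to 4.74 with a median of 2.78. The highest lay nearer Prl5a1, 361 kb from it and 437 kb from Sox4. A group of 10 peaks within 35.6 kb began 102 kb from Sox4. Sox4 had a peak at an end and Prl5a1 had none.

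Foxo1, a forkhead factor of the insulin pathway and of B cell development, flanked 26 desert peaks (17.0 to 38.1) in the gap to Cog6, chr3:52350110-52982122, which encodes a Golgi complex subunit. Of these, 23 were nearer Foxo1, beyond its 3′ end. The largest group of desert peaks in the genome, with each within 12 kb of the next, was here: 14 peaks in 46.4 kb from 101 kb past Foxo1. That group starts at the 100 kb limit, so peaks nearer Foxo1 were left out by the rule. It contained the strongest peak of the gap, with a signal value of 7.62 and a −log10 q of 21.6, at chr3:52467359-52470924. Values ran down to 1.98 and the median was 2.83. Foxo1 and Cog6 both had a peak at an end.

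Btg1, an antiproliferative gene, and Eea1, which encodes an early endosome tether, flanked 24 desert peaks (15.4 to 35.7) at chr10:96045519-96617000. Of these, 17 were nearer Btg1 and lay before its start. The strongest, 7.35, was 217 kb from Btg1 at chr10:96398721-96401943, and a group of 10 peaks within 26.2 kb began 140 kb from it. The median was 2.86. Both flanking genes had a peak at an end. On the other side of Btg1, the gap to Gm46240 held 2 desert peaks.

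Zeb2, a zinc finger factor of myeloid and dendritic cells, and the activin receptor gene Acvr2a flanked 18 desert peaks (10.7 to 28.4) across 3697 kb. Of these, 13 were nearer Zeb2, but the strongest 3 were far from it. Their values were 5.99, 5.69 and 5.39, at 2569, 3215 and 3265 kb from Zeb2. The median of the 18 was 2.74. A q-value of at most 0.05 was reached by 9 of them (50%), against 78.8% of the whole list and 67.2% of all desert peaks; in the other 9 of the 10 deserts the share ran from 60% to 75%. Zeb2 itself had no peak at an end, and Acvr2a had one.

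Trib2, a pseudokinase gene, and Lpin1, a lipid phosphatase gene, flanked 16 desert peaks (9.15 to 26.0), with values from 2.23 to 6.86. The strongest of them, at chr12:16432659-16436530, was 101 kb from Lpin1. The gap between Podxl, which encodes a sialomucin of blood progenitors and endothelium, and 1700012A03Rik also held 16, with values from 1.81 to 6.29. Ebf1, the early B cell factor, and the clathrin adaptor gene Clint1 flanked 15 (8.40 to 24.7), with values from 2.11 to 4.44. The Ebf1 peaks lay beyond the 3′ end of Ebf1, between 153 and 530 kb from it, and both of these flanking genes had a peak at an end.

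The gap between Klf14, a Krüppel-like factor gene, and Mkln1 held 14 desert peaks (7.65 to 23.5) and the strongest of all. The gaps between Adgrl2 and Adgrl4 and between Nox3 and Arid1b also held 14, and the tie for the last of the 10 places was broken by summed signal value, which was 58.1, 49.8 and 48.7 in the order named. The strongest peak, in the Klf14 gap at chr6:31125258-31127397, had a signal value of 12.5 and a −log10 q of 50.7, and ranked 146th by signal value in the whole list. It lay inside Lncpint, as did 10 of the 14, 167 kb from Klf14 and 273 kb from Mkln1. Lncpint encodes an lncRNA induced by p53. The next 3 values in the gap, 6.96, 6.43 and 5.16, were also inside Lncpint, and the 6.43 peak is the one over its start, printed above. The remaining 10 had a value of 2.94 or less.

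The order of deserts moved with the peak threshold. Counting intervals of neighbours in the order overlapped from the second desert to the tenth. With a −log10 q of at least 5, which 36.1% of the whole list and 225 of the 1160 desert peaks passed, the heavy chain gap held 35, Sox4 7, Foxo1 and Btg1 6 each, Zeb2 5 and Klf14 4. The gaps Tbc1d1 to Gm38457, Cd24a to Qrsl1, Adgrl2 to Adgrl4, Bcl11a to Fancl and Serp2 to Lacc1 held 4 each as well. At that threshold the gap beyond Myc held 2, and Trib2 and Ebf1 also 2 each.

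Of the 10 strongest desert peaks, 7 lay outside the 10 deserts with most peaks. The peak with the second highest signal value, 11.1 with a −log10 q of 40.7, was at chr3:78592427-78595830, 468 kb from Rapgef2 in the gap to Fstl5, which held 7 desert peaks. The peak of 9.64 between Fmo9 and Fam78b, at chr1:166817814-166820710, was the only desert peak in its gap. The peak of 9.18 between Ncam2 and Mrpl39 was at chr16:84582845-84585281, 135 kb from Mrpl39. Tbc1d1 and Gm38457 flanked a peak of 9.15 at chr5:64598356-64601058 in a gap with 9 desert peaks, Megf9 and Gm11232 one of 9.06 at chr4:71290552-71292310, and Gpat3 and Nkx6-1 one of 9.03 at chr5:101238394-101240141. The last of these was the only one of the 10 strongest within 1 kb of a non-coding gene end, that of Gm36851. The gap between Sall3 and Galr1 held a peak of 10.2, 440 kb from Sall3.

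The distance from a gene was 191 kb at the median, with quartiles of 135 and 334 kb. Of the 1160, 171 were more than 500 kb from any protein-coding gene end, and 39 more than 1 Mb. The farthest, 1526 kb from Pcdh17 in the gap to Olfm4, had a signal value of 2.87. The next, 1412 kb from Cntnap5b in the gap to Cdh20, had 7.53 and a −log10 q of 21.6, at chr1:101901865-101903763, and was alone in a gap of 4278 kb. The next pair, 1408 and 1407 kb from Zeb2, were 301 bp apart with values of 2.42 and 4.74. The fifth lay 1377 kb from Kcnt2 in the gap to Cdc73, with 2.63. At the distance limit, the nearest members lay at 100.2, 100.3 and 100.7 kb, with values of 2.47, 3.26 and 2.60, and the nearest peaks outside it at 99.7, 99.9 and 99.9 kb, with 2.54, 2.81 and 3.33. At the width limit, the widest members were 3872, 3821 and 3808 bp.

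Estimated peak density was lower in each distance range farther from genes, but the intervals of several neighbouring ranges overlapped. It was 5.56 peaks per Mb of sequence at 1 to 10 kb from a gene end (5.24 to 5.89) and 4.9998 at 10 to 25 kb (4.68 to 5.34). At 25 to 50 kb it was 4.90 (4.57 to 5.25), within counting error of the range before, and at 50 to 100 kb 3.87. In deserts it was 3.26 at 100 to 150 kb (2.94 to 3.60), 2.64 at 150 to 200 kb, 1.88 at 200 to 300 kb, 1.13 at 300 to 500 kb and 0.791 beyond 500 kb (0.677 to 0.919). Without the heavy chain gap, density beyond 500 kb was 0.401 (0.321 to 0.495), since 85 of the 171 peaks beyond 500 kb were in that gap. Over all distances, deserts held 1.71 peaks per Mb (1.61 to 1.81) and intergenic sequence at 1 to 100 kb held 4.85 (4.69 to 5.01), a ratio of 0.352 (0.329 to 0.376). Density also differed between chromosomes, from 0.618 per Mb on chromosome 7 to 3.61 on chromosome 12, which carries the heavy chain gap.

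**Figure D2:**
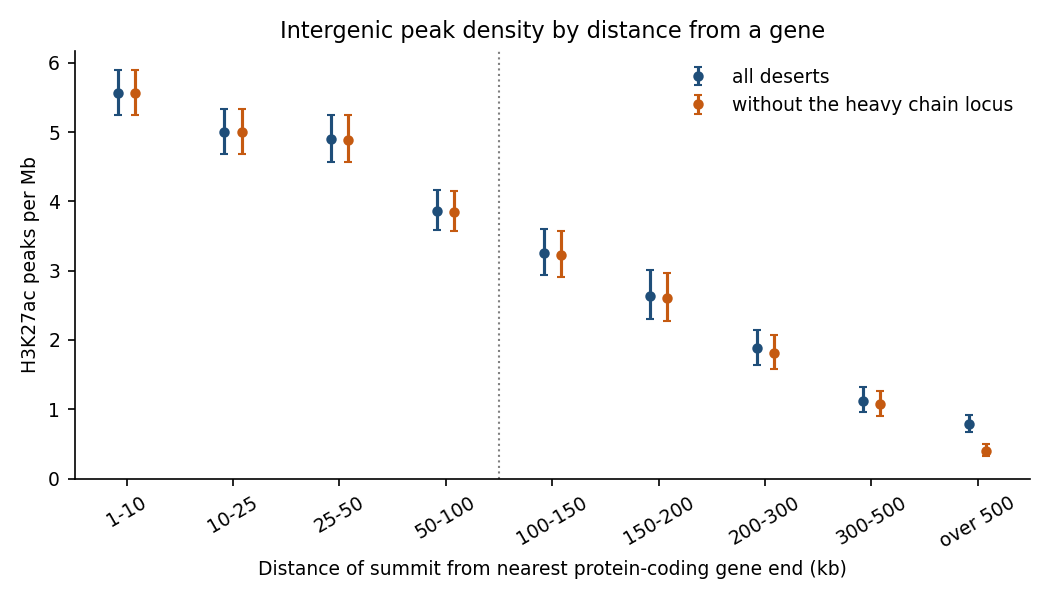
H3K27ac peaks per Mb of intergenic sequence (vertical axis) by distance of the summit from the nearest protein-coding gene end in kb (horizontal axis), with exact Poisson 95% intervals, for all deserts and without the heavy chain gap; the dotted line marks 100 kb. Density fell from 5.56 at 1 to 10 kb to 0.791 beyond 500 kb, or 0.401 without the heavy chain gap.

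Desert peaks had lower signal values than intergenic peaks nearer genes, and smaller differences separated them from peaks inside genes. The median signal value was 2.87 (2.82 to 2.94), with quartiles of 2.54 and 3.58, for the 1160 desert peaks, and 3.09 (3.03 to 3.12) for the 3553 intergenic peaks at 1 to 100 kb. The difference of the medians was −0.214 (−0.297 to −0.0919), and a desert peak was the higher in 42.9% of all pairs. The interval of this difference included 0 when genes of every kind set the distance (−0.0343, −0.306 to 0.153) and among peaks with a −log10 q of at least 5 (−0.226, −0.551 to 0.0613) or a signal value of at least 4 (−0.253, −0.532 to 0.214). Among peaks with a q-value of at most 0.05 it was −0.126, with an interval from −0.245 that reached 0. For the 10187 peaks inside a gene and over 1 kb from an end, the median was 2.90. The difference of the desert median from it was −0.0306, with an interval that included 0 (−0.0824 to 0.0613). For the 7154 peaks within 1 kb of a gene end the median was 4.22. A q-value of at most 0.05 was reached by 779 desert peaks (67.2%, 64.4% to 69.8%), against 78.8% of the whole list, 77.3% of the intergenic peaks at 1 to 100 kb, 69.7% of the peaks inside genes and 92.4% of those at gene ends. The difference from the intergenic peaks at 1 to 100 kb was −10.2 percentage points (−13.2 to −7.17), but −6.07 with an interval that included 0 (−15.8 to 2.38) when genes of every kind set the distance. The difference from peaks inside genes was −2.54 (−5.44 to 0.250), or −3.12 (−6.16 to −0.199) without the heavy chain gap. Against peaks inside genes, the share with a −log10 q of at least 5 differed by −2.81 points (−5.13 to −0.303). A signal value of at least 4 was reached by 197 desert peaks (17.0%), against 33.9% of the whole list. That share differed from the one of peaks inside genes by −3.12 points (−5.32 to −0.726). Median widths were 766.5 bp for desert peaks and 796 bp for intergenic peaks at 1 to 100 kb. The difference was −29.5 bp, with an interval that included 0 (−105 to 48). Without the heavy chain gap, the median signal value of the remaining 1053 was still 2.87.

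**Figure D3:**
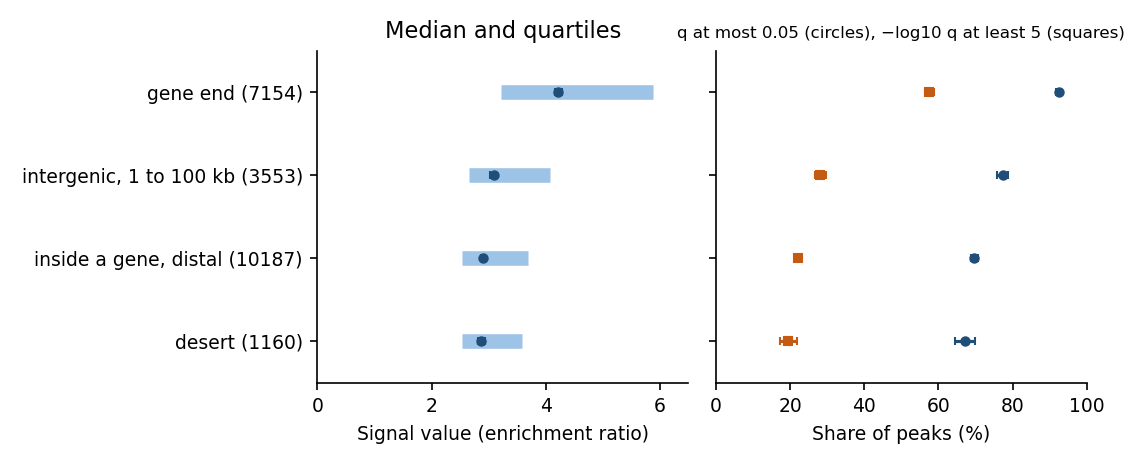
Left, median signal value (points, with 95% intervals) and quartiles (bars) for desert peaks, peaks inside genes over 1 kb from an end, intergenic peaks at 1 to 100 kb and peaks within 1 kb of a gene end; right, the percentage of each reaching a q-value of 0.05 (circles) and a −log10 q of 5 (squares), with 95% Wilson intervals. The interval of the desert median, 2.87, overlaps that of the median of peaks inside genes, 2.90, and the median at gene ends is 4.22.

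Of the 1160 desert peaks, 578 (49.8%, 47.0% to 52.7%) had another desert peak within 12 kb. That share was 29.1% after peaks within 1 kb were merged, and 19.6% among peaks with a −log10 q of at least 5. Counting any autosomal narrow peak as the neighbour, it was 50.3% for desert peaks (47.5% to 53.2%), 58.1% for intergenic peaks at 1 to 100 kb (56.5% to 59.8%), 71.2% for peaks inside genes and 62.1% over all. Joining peaks within 12 kb gave 789 groups, of which 582 were single peaks and 78 held 3 or more. After the Foxo1 group of 14, the largest were a group of 12 in the heavy chain gap and the groups of 10 near Btg1 and near Sox4. A group of 7 lay 109 kb from Serp2 in the gap to Lacc1.

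Desert peaks lay within annotated lncRNA genes more often than the desert sequence itself. A summit inside an lncRNA gene was found for 314 desert peaks (27.1%, 24.6% to 29.7%), while lncRNA genes covered 10.4% of desert sequence and held 22.5% of the intergenic peaks at 1 to 100 kb. Some lncRNA genes held many of the 314, such as 30 in 2610307P16Rik and 14 in Pvt1, and the interval treats such peaks as independent. How much of the intergenic sequence at 1 to 100 kb non-coding genes or their ends take up is not given here. Ends of non-coding genes of any kind had a desert summit within 1 kb for 135 peaks (11.6%, 9.92% to 13.6%), against 2.48% of desert sequence. Among the intergenic peaks at 1 to 100 kb the share was higher, 15.5%. Without the heavy chain gap the desert share was 7.41% (5.98% to 9.15%), against 2.42% of sequence. Near lncRNA ends alone it was 5.78%, against 1.26% of sequence and 11.6% of the intergenic peaks at 1 to 100 kb.

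Genes that flank a desert with peaks had a peak at an end more often than genes that flank a desert without. A peak at an end was found for 484 of the 1851 genes flanking deserts without a desert peak (26.1%, 24.2% to 28.2%), for 244 of 527 flanking deserts with 1 to 4 (46.3%, 42.1% to 50.6%) and for 64 of 117 flanking deserts with 5 or more (54.7%, 45.7% to 63.4%). The difference between deserts with 5 or more and deserts with none was 28.6 percentage points (19.3 to 37.5). The difference between deserts with 5 or more and those with 1 to 4 was 8.40 points, and its interval (−1.58 to 18.1) included 0. A gene that flanks a desert on either side can enter more than 1 of these sets.

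A list of 80 genes of blood cell development was chosen with results of these data known and holds many of the genes described above, so its counts describe the list and support no statement on blood genes in general. Of the 80, 37 flanked a desert, and 29 of those (78.4%, 62.8% to 88.6%) flanked one with a desert peak, against 604 of the 2337 other flanking genes (25.8%, 24.1% to 27.7%). With a −log10 q of at least 5, the shares were 14 of 37 (37.8%) and 224 of 2337 (9.58%). Deserts with 5 or more peaks were flanked by 13 of the 37, against 117 of all 2374 flanking genes (4.93%).

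Among the transcription factors of the list not yet named, Bcl11a, a repressor active in B cells and in globin switching, flanked 13 desert peaks with a highest signal value of 5.998 in the gap to Fancl. Klf4, a regulator of monocytes, flanked 7 with a highest of 7.38. Tcf4, a factor of B cells and plasmacytoid dendritic cells, and Id2, an inhibitor of such factors, flanked 6 each, with highest values of 5.02 and 4.48. Satb1, a chromatin organiser of lymphoid progenitors, flanked 5 on one side and 3 on the other. Maf flanked 5 and 1, and Cxcr4, the receptor that keeps progenitors in the marrow, flanked 5 with a highest of 5.17. Bcl2l11, the proapoptotic gene beside Morrbid, Gata3, a T cell factor, and Mef2c flanked 4 each. Runx1, a factor needed for blood stem cells, flanked 3 with a highest of 3.51. Ets1, Lmo4, Mycn and Prdm1 also flanked 3 each.

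Kit, the receptor used in the sort, flanked 2 on each side, with highest values of 3.59 and 2.97. Foxp1 flanked 2, of which the stronger had 7.90. Bcl6, Cebpb and Tox flanked 2 each, and Bcl11b, Lef1 and Meis1 flanked 1 each. The list genes whose deserts held no desert peak included Bach2, Cdk6, Ets2, Ikzf2, Irf8 and Mecom. Peaks within 100 kb of these genes were not counted. Mecom, a stem cell factor and one of the markers of the labelled cells, had no peak at an end either, whereas Bach2 and Cdk6 each had one.

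**Figure D4:**
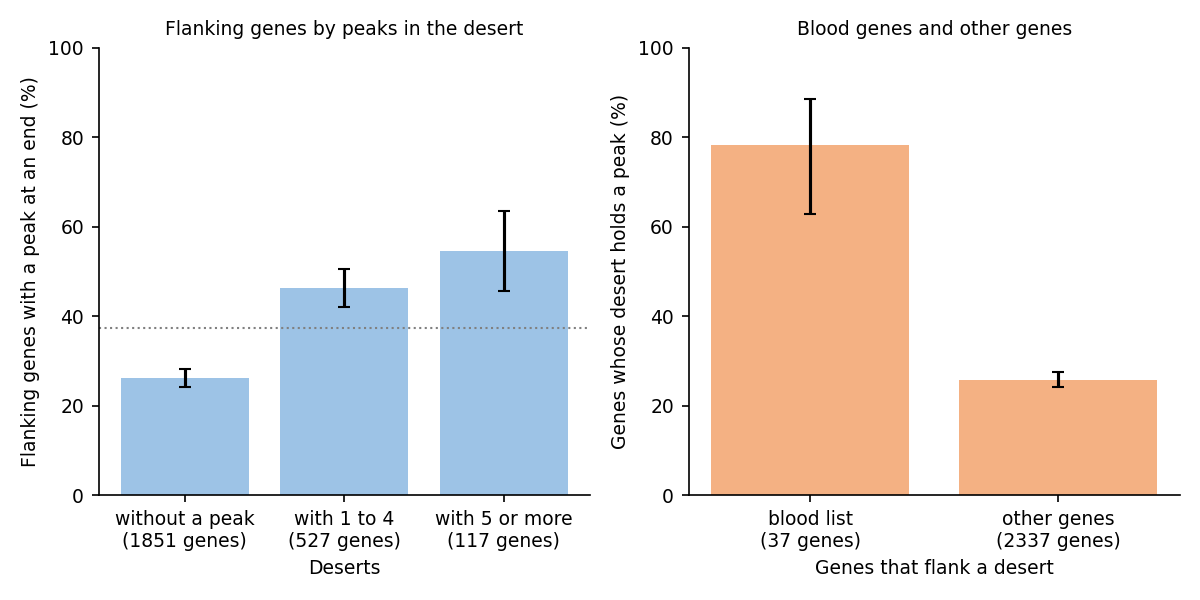
Left, percentage of flanking genes with a peak at an end for deserts without a desert peak, with 1 to 4 and with 5 or more, with 95% Wilson intervals and the share of all autosomal protein-coding genes as a dotted line (37.4%); right, percentage of genes flanking a desert whose desert holds a peak, for the blood list, which was chosen with results of these data known, and for other genes. The bars on the left are at 26.1%, 46.3% and 54.7%, and those on the right at 78.4% and 25.8%.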

How the data were processed

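The 4 H3K27ac libraries were pooled by the authors into 1 list of peaks over input. The submitters' processing notes name BWA, MACS2 and the build mm10; versions and filters are not given in the sources used here. The deposited columns hold a score, the signal value read as an enrichment ratio, the −log10 p and the −log10 q of each peak. The total reads of each library are not given in the sources used here, so depth is unknown. Peaks were classed by summit against RefSeq genes on GRCm38.p6, the same build, taking 20661 autosomal protein-coding genes; 4 genes of the table without a position were left out, so a peak in one could count as a desert peak, and assembly gaps were not removed from desert lengths. Shares have Wilson intervals, their differences Newcombe intervals, medians exact order-statistic intervals, and counts exact Poisson intervals; peaks share their libraries and neighbours, so these cover counting error only. No test between libraries was possible. Named genes are those flanking the 10 deserts with most peaks, the 10 strongest and 5 farthest peaks, and the blood list; others were named after their values were seen, and some items are not reported here. The members and lists were chosen with earlier results of these data known. Sequence at summits was not analysed, as no whole genome sequence was used here, only RefSeq start windows and mature microRNAs. Distance, gene set, peak threshold, merging and width were varied. Code ran in Python 3.11.15 with numpy 2.4.6, pandas 2.3.3 and scipy 1.17.1, and was tested on simulated peaks.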

Additional observations from a re-analysis of the deposited data

How the results depend on the processing

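Of 113 recomputed values, 56 stayed within the limits set for no change, 54 moved and 3 reversed; the cause was not tested except where fewer peaks or more genes follow from the setting. With the distance limit at 50 kb and at 200 kb, desert peaks numbered 1869 and 559, their share 8.47% and 2.53%, and the density ratio 0.418 and 0.262; at 200 kb, 14.7% lay near a non-coding end. With genes of every kind, which add non-coding genes and receptor segments, 102 peaks remained (0.463%), the fullest desert held 7, 6.27% of deserts held a peak, the density ratio was 0.159, 28.4% had a neighbour within 12 kb, 0% lay near a non-coding end, 1 blood gene flanked a desert with a peak, the signal difference was −0.0343 and the difference in share at q 0.05 was −6.07 points. With q at most 0.05, the share was 4.52%, the density ratio 0.305, 20.6% of deserts held a peak and 42.5% had a neighbour. With −log10 q of at least 5, there were 225 peaks (2.96%), 35 in the fullest desert, a density ratio of 0.242, 8.76% of deserts with a peak, 19.6% with a neighbour, 19.1% near a non-coding end and 14 blood genes. With a signal value of at least 4, these were 197 (2.76%), 30, 0.229, 7.75%, 20.3%, 19.3% and 14, and the difference at q 0.05 was 0 points. The width difference reversed to 68, 159 and 134.5 bp under these 3 thresholds, each interval including 0. Merging peaks within 1 kb gave a share of 5.69% and 29.1% with a neighbour. Without the heavy chain gap and without all receptor gaps, the share was 4.80% and 4.76%, the density ratio 0.321 and 0.324, the share with a neighbour 46.5% and 46.4%, and that near a non-coding end 7.41% and 7.38%; without receptor gaps the fullest desert held 33. Neighbours within 5 kb were found for 41.4%, and non-coding ends within 5 kb for 29.7%. With summits within 1 kb outside a gene added to the comparison group, chosen after the data were seen, the signal difference was −0.429, the difference at q 0.05 −14.4 points and the density ratio 0.253.

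No paired analysis was possible because all 4 libraries enter 1 pooled list, and none was left out in turn for the same reason. Library depth is unknown, and an absent peak is not a measured absence of acetylation. The planned sequence analysis at summits was not run.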

Other observations

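Wide peaks left out by the 4000 bp limit repeated several of the same gaps: 21 autosomal peaks of at least that width lay beyond 100 kb from a gene, 6 of them in the heavy chain gap and 3 in the gap between Eea1 and Btg1. The strongest, in the heavy chain gap, had a signal value of 14.5 over 5209 bp, higher than the 12.5 of the strongest narrow desert peak. Foxo1 and Cog6, and Cd24a and Qrsl1, each flanked 2 of the 21, and Klf14 and Mkln1 flanked 1 of 6059 bp with a signal value of 7.96, inside the same gap as the strongest narrow one.

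On the X chromosome the same rule gave 10 peaks, 0.172 per Mb of desert sequence (0.0826 to 0.317), against 1.71 on the autosomes. Few peaks of any kind lay off the autosomes, which held 22618 of the 22948. Density on the X outside deserts is not given here, so the difference is not shown to be particular to deserts. The signal values of the 10 X peaks ran from 2.29 to 5.02 with a median of 3.02.

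By density, short deserts came first, chosen after their values were seen: the gap between Nr3c1, the glucocorticoid receptor gene, and Pabpc2 held 6 peaks in 54.1 kb of sequence beyond the limit, 111 per Mb. The gap between Ufm1 and Trpc4 held 7, 76.3 per Mb, and that between Cd24a, a B lineage surface glycoprotein gene, and Qrsl1 held 6, 66.7 per Mb, with a highest signal value of 6.46.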
